A study of Mus musculus with 12 samples.

Results

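The 10 Sox transcription factor genes described here act in neural progenitors and were followed in RNA sequencing of mouse cells, to ask what the relatives of Sox1 did when Sox1 was switched on. The members were listed by name and matched to the count table through the Ensembl identifiers of GENCODE. All 10 were found among 45706 genes, each under 1 identifier. They were Sox1, Sox2 and Sox3 of subfamily SoxB1, Sox21 of SoxB2, Sox4, Sox11 and Sox12 of SoxC, and Sox8, Sox9 and Sox10 of SoxE. Of these, 9 passed the filter on low counts and were tested among 17003 genes, and Sox10 did not pass.

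All cells came from mouse embryonic stem cells that carry GFP in 1 copy of the Sox1 gene, with C57BL/6 as the strain in the labels, and each of the 4 groups held 3 libraries. Baseline are Sox1-negative glial progenitors, given as unsorted, which the study calls NPCs and grew with EGF and bFGF. Sox1posGP are Sox1-positive glial progenitors, given as sorted, in which dCas9-VP64, an inactive Cas9 fused to a transcriptional activator, had been directed to the Sox1 promoter by guide RNAs. NSC are given as neuroepithelial cells that were not sorted, and NR as neural rosettes sorted for GFP. Each dCas9-VP64 line was a clone of 1 cell, and the lines behind the Baseline and Sox1posGP libraries are not stated. The labels give Baseline as unsorted, whereas the study's text describes sorting for the comparison with induced cells. If Baseline was unsorted, as labelled, the effects of sorting and of Sox1 cannot be told apart. If Baseline lacked the guide RNAs and the selection for them, their effects cannot be told apart from those of Sox1 either. By the study, only a minority of targeted cells responded, and these had less DNA methylation at the Sox1 promoter. Traits that responding cells held before targeting cannot be told apart from effects of Sox1. Sorting on the Sox1 reporter also means that the Sox1 levels of Sox1posGP and NR check the labels and are not independent findings.

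Sox proteins bind DNA through a shared HMG domain, usually together with a partner such as a POU factor. SoxB1 factors hold neural stem and progenitor cells in the undifferentiated state, and Sox21 acts largely against them as a repressor. SoxC factors act in committed neuronal precursors, whereas SoxE factors act in the neural crest and in glia, where Sox9 takes part in the start of gliogenesis and Sox10 in the maturation of oligodendrocytes.

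Total counts ran from 4939268 to 18351483 in Baseline, from 3407066 to 6315574 in Sox1posGP, from 29046205 to 43095688 in the libraries labelled NSC and from 16707006 to 34594885 in the libraries labelled NR. The libraries labelled NR held less Sox1 than those labelled NSC although they are given as sorted for GFP. The pluripotency list of 8 markers, such as Nanog and Zfp42, summed to 901 to 1654 CPM (the read count scaled to library size) in NR against 40.0 to 94.8 in NSC. It summed to 32.6 to 43.0 in Baseline and 11.7 to 13.7 in Sox1posGP. Klf4, named after its value was seen, made up most of the Baseline sum, with means of 33.5 CPM in Baseline and 5.79 in Sox1posGP. Nanog and Zfp42 had means of 0.703 and 0.826 CPM in Baseline and 0.919 and 1.22 in Sox1posGP. Fibroblast and vessel markers summed to 1453 to 7606 CPM in NR, 925 to 3405 in NSC and at most 40.0 in a progenitor library. Baseline and Sox1posGP held the glial progenitor genes Slc1a3 (2605 and 1182 CPM) and Olig1 (1757 and 1373 CPM), with Gfap of mature astrocytes at 2.25 and 3.09 CPM. Slc1a3 and Olig1 were the most abundant of the astroglial and oligodendroglial lists described below. Other genes of the oligodendroglial list were low in Baseline and Sox1posGP. Pdgfra was at 8.36 and 4.64 CPM, Cspg4 at 0.222 and 0.213 and Nkx2-2 at 0.235 and 0.208, named after their values were seen. Neural crest markers summed to 338 to 367 CPM in Baseline, 222 to 259 in Sox1posGP, 460 to 539 in NSC and 160 to 287 in NR, mesoderm and endoderm markers to at most 138 and blood markers to at most 7.94 in any library. NR replicate 1 stood apart with 4.62 CPM of Sox1 against 20.0 and 19.2 in replicates 2 and 3. Fold changes and sums of the Sox genes above in NR are therefore followed by the value without replicate 1, or by each library. In bulk RNA, fewer cells of a type and less RNA per cell cannot be told apart.

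The promoters of members that fell together in Sox1posGP are shown first, because the study turned on a gene of the same family through its promoter. RefSeq windows of GRCm38.p6, from 250 bases before to 50 after a gene's start, matched 7 of the 10 members, and Sox3, Sox9 and Sox10 had none. The lines give the 250 bases before the start for the 4 matched members called lower in Sox1posGP, 5′ to 3′ on the gene's own strand. They lie at chr3:34649745-34649994 (Sox2, plus strand), chr14:118237031-118237280 (Sox21, minus), chr12:27342719-27342968 (Sox11, minus) and chr17:25570687-25570936 (Sox8, minus). Capitals mark ACAAAG or ACAATG, which are Sox sites, and GGGCGG, the GC box, read on both strands, and no match overlaps another.
Sox2: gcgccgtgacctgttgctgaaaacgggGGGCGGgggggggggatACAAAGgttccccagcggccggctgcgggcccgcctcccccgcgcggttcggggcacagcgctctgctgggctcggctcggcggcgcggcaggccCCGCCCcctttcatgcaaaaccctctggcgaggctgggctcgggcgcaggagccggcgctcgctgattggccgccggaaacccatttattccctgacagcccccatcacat
Sox21: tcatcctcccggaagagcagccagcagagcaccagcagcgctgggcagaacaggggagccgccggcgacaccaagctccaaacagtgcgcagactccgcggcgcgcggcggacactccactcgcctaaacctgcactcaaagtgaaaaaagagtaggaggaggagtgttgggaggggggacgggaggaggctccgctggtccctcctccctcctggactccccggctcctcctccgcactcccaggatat
Sox11: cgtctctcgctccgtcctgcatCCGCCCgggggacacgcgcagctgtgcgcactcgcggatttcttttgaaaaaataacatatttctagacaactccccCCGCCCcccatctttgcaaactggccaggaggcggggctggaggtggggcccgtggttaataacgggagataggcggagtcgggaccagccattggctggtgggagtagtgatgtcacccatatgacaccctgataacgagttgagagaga
Sox8: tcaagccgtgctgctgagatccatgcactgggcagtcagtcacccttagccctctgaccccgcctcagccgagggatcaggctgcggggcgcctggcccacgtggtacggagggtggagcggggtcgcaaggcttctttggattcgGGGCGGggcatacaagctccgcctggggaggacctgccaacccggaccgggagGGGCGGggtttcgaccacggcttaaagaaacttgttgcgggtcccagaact

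ACAAAG occurred once in the Sox2 window and in no other member's, against 18.7% of all 32851 windows. ACAATG occurred in none of the 7, against 12.6% of all windows. GGGCGG was found 3 times in Sox1, 2 times each in Sox2, Sox11 and Sox8 and 4 times in Sox12, and not in Sox21 or Sox4, while 35.7% of all windows held it. The octamer ATGCAAAT, which POU factors bind, was held by 1.74% of all windows and by those of Sox1 and Sox12. It is shown for Sox1 because Sox1 is the targeted gene, in 30 bases at chr8:12395526-12395555 on the plus strand. The first base of the octamer is the 19th of the RefSeq transcript, and capitals mark the octamer.
Sox1: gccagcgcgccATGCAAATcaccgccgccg

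Each of the 7 windows held more CpG than the median window, though that of Sox4 exceeded only 60.4% of all windows. Sox1 had 37 CpG, more than 94.4% of all windows, and Sox12 had 47, while Sox4 had 12 and the median window had 7. Sox2, Sox21, Sox11 and Sox8 had 27, 22, 21 and 21. These letters describe the windows only, and no methylation was measured in these libraries. The RefSeq and GENCODE starts differ for some members. Inside the GENCODE gene lie 274 bases of the Sox1 window and 0 bases of the windows of Sox2 and Sox11.

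Sox1 (chromosome 8, 12395295 to 12400126, 1 exon) was on in Sox1posGP. Its level was 4.83, 6.00 and 5.43 CPM in Baseline and 20.3, 20.9 and 21.7 in Sox1posGP. It was 48.6, 64.9 and 51.8 CPM in the libraries labelled NSC. All 3 Sox1posGP libraries lay above all 3 Baseline libraries and below all 3 NSC libraries. Against Baseline the rise was 3.93-fold (log2 fold change 1.97, standard error 0.43, edgeR adjusted p = 0.00221, from its quasi-likelihood test and corrected by Benjamini-Hochberg over all genes tested). Reads of the GFP copy of the gene may be counted only in part, and this was not tested.

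None of the other 8 tested members rose with Sox1. A gene was called at an adjusted p under 0.1 and a p under 0.05 in edgeR. Of the 9 tested members 1 was called higher in Sox1posGP than in Baseline (Sox1), where 21.6% of all genes were. A total of 6 were called lower (Sox2, Sox3, Sox21, Sox11, Sox8 and Sox9), where 22.7% of all genes were. All 3 Sox1posGP values lay below all 3 Baseline values for 7 members, the same 6 and Sox4, against 27.1% of all genes. No member passed 4-fold, which 5.79% of all genes did. These 9 directions held in all 20 alternative settings run for each gene.

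**Figure D1:**
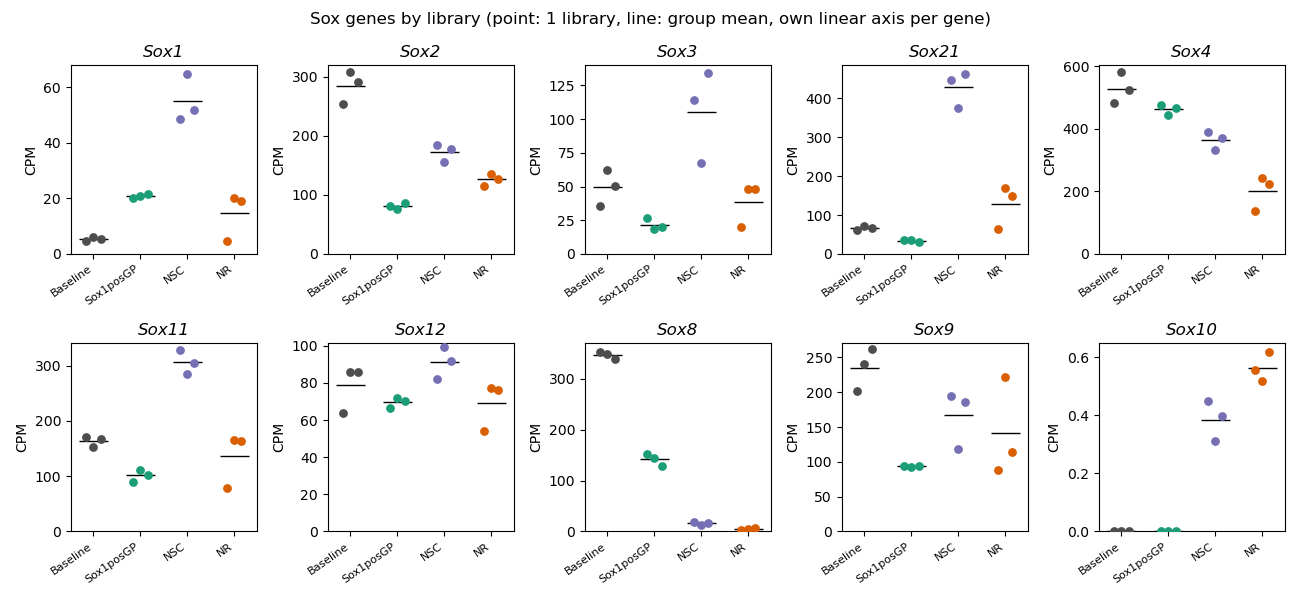
Each point is the level of a Sox gene in 1 library, in CPM on a linear axis of its own, with the group mean as a line and 3 libraries in each of the 4 groups. Sox1 was above Baseline in every Sox1posGP library (20.3 to 21.7 against 4.83 to 6.00 CPM), while Sox2, Sox3, Sox21, Sox11, Sox8 and Sox9 were below it in every one.

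Sox2, the SoxB1 factor that marks pluripotent cells and neural progenitors alike, fell most. Its levels were 254, 308 and 291 CPM in Baseline and 81.1, 76.8 and 86.6 in Sox1posGP. The fall was 3.49-fold (log2 fold change -1.80, standard error 0.10, edgeR adjusted p = 2.11e-08). Sox2 was 185, 156 and 179 CPM in NSC and 116, 135 and 128 in NR. No library of Sox1posGP reached the lowest value of any other group. Sox1posGP was 2.12-fold below NSC (log2 -1.09, standard error 0.10, edgeR adjusted p = 4.05e-07) and 1.55-fold below NR (log2 -0.63, standard error 0.10, edgeR adjusted p = 6.44e-05, and -0.67 without NR replicate 1). Against Baseline, NSC and NR were lower by 1.64-fold and 2.25-fold. The log2 fold change of NR was -1.17, and -1.14 without replicate 1.

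Sox3, the third SoxB1 gene and an X-linked one, was at 35.6, 61.9 and 50.7 CPM in Baseline and at 26.9, 18.2 and 19.8 in Sox1posGP. The groups did not overlap, with a 2.30-fold fall (log2 -1.20, standard error 0.36, edgeR adjusted p = 0.0158). In NSC its levels were 114, 67.1 and 134 CPM, all above Baseline (log2 1.102, standard error 0.32, edgeR adjusted p = 0.00642). Sox3 thus lay on opposite sides of Baseline in Sox1posGP and NSC, which differed 4.94-fold (log2 -2.30, standard error 0.35, edgeR adjusted p = 4.92e-05). These comparisons share the Baseline libraries.

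Sox21, the SoxB2 factor, showed the same order on a wider scale. It was at 61.6, 72.4 and 67.6 CPM in Baseline, 36.5, 35.6 and 31.0 in Sox1posGP and 447, 376 and 464 in NSC. The fall in Sox1posGP was 1.96-fold (log2 -0.97, standard error 0.28, edgeR adjusted p = 0.0136). The rise in NSC was 6.40-fold (log2 2.68, standard error 0.26, edgeR adjusted p = 5.95e-07), and no 2 groups of these 3 overlapped. Sox1posGP was 12.5-fold below NSC (log2 -3.65, standard error 0.28, edgeR adjusted p = 7.67e-08). Gm4675, a noncoding gene on the opposite strand that shares 713 exonic bases with Sox21, fell from 3.88 to 1.98 CPM (edgeR adjusted p = 0.0624). The strand setting of the counting is not given in the sources used here, so reads of such pairs cannot be told apart.

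Levels per length allow the SoxB1 genes to be compared with each other, with a limit for Sox1. Reads of its GFP copy may be counted only in part, so the level, share and ratios of Sox1 may be too low. Summed over Sox1, Sox2 and Sox3, CPM per kb of exon was 163 ± 19.8 (SD, n = 3) in Baseline, 54.4 ± 3.44 in Sox1posGP, 146 ± 21.8 in NSC and 83.2 ± 14.2 in NR. The sum was lowest in Sox1posGP, and in NSC, where Sox1 was higher, it was near that of Baseline. In NR it was 66.9 in replicate 1 and 93.1 and 89.5 in the others. Sox1 made up 0.688% ± 0.016 of the sum in Baseline, 7.99% ± 0.58 in Sox1posGP, 8.05% ± 2.61 in NSC and 3.44% ± 1.74 in NR (SD, n = 3). Sox2 made up most of it in every group, from 57.9% ± 4.39 in NSC to 84.8% ± 2.21 in Baseline, with 72.8% ± 2.84 in Sox1posGP and 74.7% ± 8.08 in NR. Sox3 made up 14.5% in Baseline, 19.2% in Sox1posGP, 34.1% in NSC and 21.9% in NR. In NR replicate 1 the shares of Sox1, Sox2 and Sox3 were 1.43%, 84.0% and 14.6%, against 4.45%, 70.7% and 24.9% in replicate 2 and 4.44%, 69.4% and 26.1% in replicate 3.

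The ratio of Sox1 to Sox2 per length was 0.0081, 0.0083 and 0.0079 in Baseline. In Sox1posGP it was 0.106, 0.116 and 0.107, and in NSC 0.112, 0.178 and 0.123. The ratios of Sox1posGP and NSC overlapped, although both genes were lower in Sox1posGP. Sox1 was 2.62-fold lower there (log2 -1.39, standard error 0.36, edgeR adjusted p = 0.00377), beside the 2.12-fold for Sox2. The ratio of Sox1 to Sox3 was 0.322, 0.490 and 0.467 in Sox1posGP and 0.183, 0.414 and 0.165 in NSC. In NR replicates 1 to 3 the ratio of Sox1 to Sox2 was 0.017, 0.063 and 0.064, all above Baseline and below Sox1posGP.

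**Figure D2:**
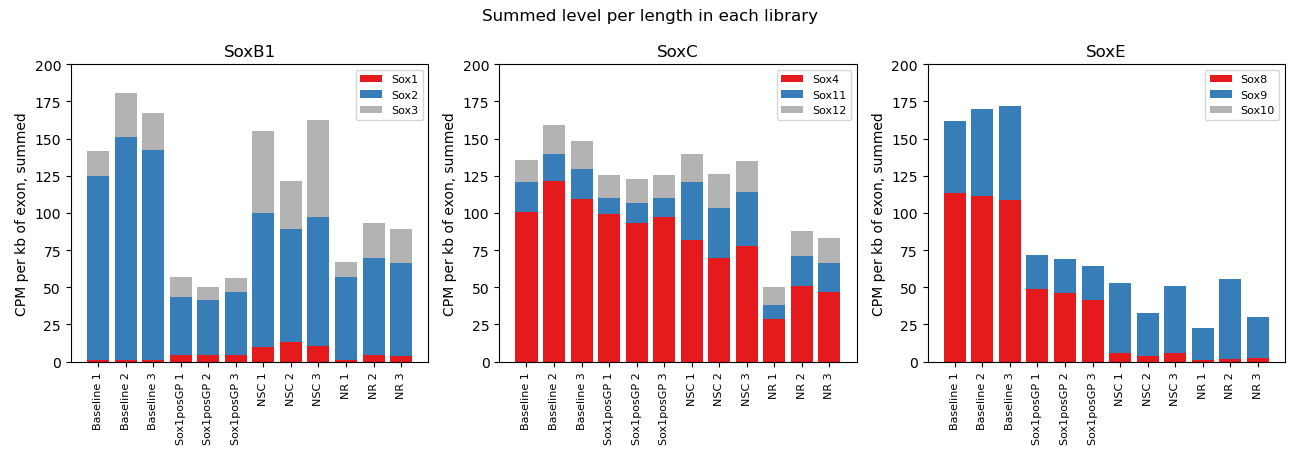
Stacked bars give CPM per kb of exon in each of the 12 libraries for SoxB1, SoxC and SoxE, 1 colour per gene, on linear axes from 0. The SoxB1 sum is lowest in Sox1posGP (mean 54.4), and the shares of Sox8 and Sox9 are alike in Baseline and Sox1posGP while Sox8 takes at most 12.3% of the sum in NSC and 7.11% in NR.

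Among SoxC genes only Sox11 was called in Sox1posGP. Sox11, which acts in young neurons, was at 170, 153 and 167 CPM in Baseline and at 89.7, 112 and 102 in Sox1posGP, a 1.61-fold fall (log2 -0.69, standard error 0.21, edgeR adjusted p = 0.0205). In NSC it was at 329, 285 and 305 CPM, above Baseline in all 3 libraries (log2 0.90, standard error 0.21, edgeR adjusted p = 0.00133). Like Sox3 and Sox21 it was on the other side of Baseline in NSC, and Sox1posGP lay 3.01-fold below NSC (log2 -1.59, standard error 0.21, edgeR adjusted p = 1.61e-05).

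Sox4 was the most abundant SoxC gene in every group. It was at 482, 581 and 523 CPM in Baseline and 477, 446 and 468 in Sox1posGP. The log2 fold change of -0.19 (standard error 0.16, edgeR adjusted p = 0.389) did not pass, although the groups did not overlap. Without NR replicate 1 in the fit it passed at -0.20 (edgeR adjusted p = 0.0818), within a range of 0.0785 to 0.681 over 20 alternatives. Sox4 was lower than Baseline in NSC (391, 333 and 372 CPM, log2 -0.53, standard error 0.16, edgeR adjusted p = 0.00772). In NR it was lower still (138, 244 and 223 CPM, log2 -1.39, standard error 0.16, edgeR adjusted p = 2.84e-06, and -1.21 without replicate 1).

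Sox12 had group means of 69.4 to 91.1 CPM, the narrowest range of the tested members. It was at 63.9, 86.1 and 86.0 CPM in Baseline, 66.6, 72.1 and 70.1 in Sox1posGP, 82.2, 99.3 and 91.7 in NSC and 54.3, 77.4 and 76.4 in NR. Sox1posGP lay within the Baseline range (log2 -0.17, standard error 0.15, edgeR adjusted p = 0.426). The SoxC sum per kb was 148 ± 11.9 in Baseline, 124 ± 1.61 in Sox1posGP, 133 ± 6.93 in NSC and 74.0 ± 20.5 in NR (SD, n = 3). Sox4 made up 74.6% of it in Baseline and 77.6% in Sox1posGP, against 57.0% in NSC and 56.9% in NR. The NR sum was 50.4 in replicate 1 and 88.1 and 83.5 in the others, with Sox4 shares of 57.2%, 57.7% and 55.8%.

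Sox8 and Sox9, the SoxE genes of glial cells, fell in nearly equal proportion. Sox8 was at 353, 348 and 339 CPM in Baseline and 152, 145 and 129 in Sox1posGP (2.44-fold lower, log2 -1.29, standard error 0.15, edgeR adjusted p = 1.38e-05). Sox9 was at 201, 241 and 262 CPM in Baseline and 93.8, 92.2 and 94.6 in Sox1posGP (2.50-fold lower, log2 -1.32, standard error 0.28, edgeR adjusted p = 0.00189). The ratio of Sox8 to Sox9 per length was 2.32, 1.92 and 1.71 in Baseline and 2.15, 2.08 and 1.81 in Sox1posGP, and these overlapped. The SoxE sum per kb fell from 168 ± 5.29 to 68.2 ± 3.62 (SD, n = 3).

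In the neuroepithelial libraries the pair separated. Sox8 was at 17.7, 12.6 and 17.1 CPM in NSC (21.8-fold below Baseline, log2 -4.45, standard error 0.17, edgeR adjusted p = 5.09e-11) and at 3.76, 5.23 and 6.63 in NR (64.7-fold below, log2 -6.02, standard error 0.18, edgeR adjusted p = 9.00e-12, and -5.90 without NR replicate 1). Sox9 was at 195, 119 and 187 CPM in NSC and did not pass (log2 -0.49, standard error 0.27, edgeR adjusted p = 0.111), though all 3 values lay below Baseline. Sox9 passed in 4 of 20 alternatives. These were the fits without NR replicate 1 (-0.52) or NR replicate 2 (-0.48), with only the 2 groups compared (-0.51) and without the filter on low counts (-0.40). The ratio of Sox8 to Sox9 was 0.121, 0.141 and 0.122 in NSC and between 0.031 and 0.077 in NR. Sox8 of Sox1posGP therefore remained 8.94-fold above NSC (log2 3.16, standard error 0.16, edgeR adjusted p = 1.28e-09). The antisense gene 2810468N07Rik, which shares 329 exonic bases with Sox8, had 45.0 CPM in Baseline, 33.3 in Sox1posGP, 4.23 in NSC and 1.42 in NR, and was called lower in each (log2 -0.44, -3.40 and -4.92).

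Sox10 had no count in any Baseline or Sox1posGP library. A floor of 3 counts, the upper limit that a count of 0 allows, equals on average 0.408 CPM in Baseline and 0.613 in Sox1posGP, for counting error only. The libraries labelled NSC had 20, 9 and 13 counts, or 0.447, 0.311 and 0.396 CPM, and NR had 9, 16 and 22 counts, or 0.554, 0.516 and 0.618 CPM. Sox10 did not pass the filter on low counts and was not part of the edgeR test. It was called lower in Baseline and in Sox1posGP than in NSC and NR with DESeq2 and with edgeR without the filter. The levels of NSC and NR are close to the floor of the other groups, so no fold is given.

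**Figure D3:**
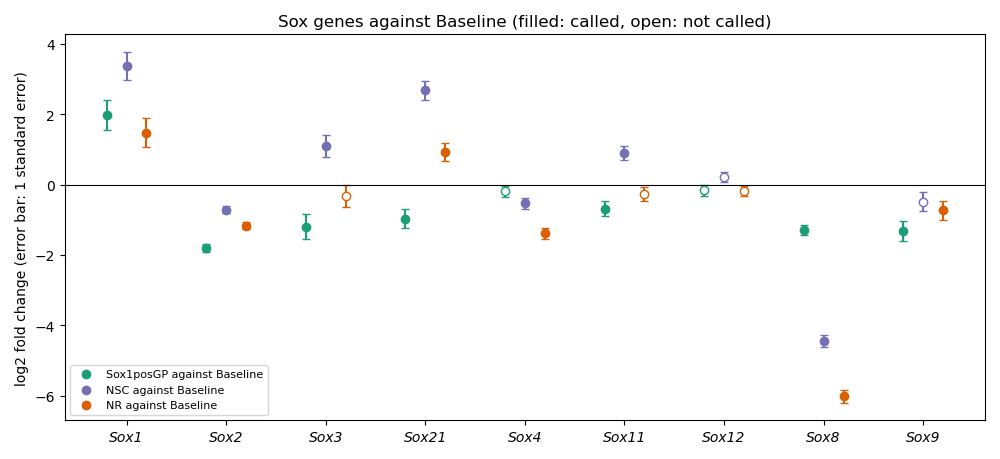
Log2 fold change against Baseline of the 9 tested members in Sox1posGP, NSC and NR, with 1 standard error as the bar, filled where called and open where not. The 3 comparisons share the Baseline libraries. Sox3, Sox21 and Sox11 lie below 0 in Sox1posGP (-1.20, -0.97 and -0.69) and above 0 in NSC (1.102, 2.68 and 0.90).

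Against Baseline, 4 members were called higher in NSC (Sox1, Sox3, Sox21 and Sox11), where 42.7% of all genes were. Called lower were 3 (Sox2, Sox4 and Sox8), where 32.5% of all genes were. Sox1 was 10.3-fold higher (log2 3.37, standard error 0.41, edgeR adjusted p = 4.65e-06). Sox1, Sox21 and Sox8 passed 4-fold, as did 3252 genes that were higher and 1002 that were lower among all 17003 tested.

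In NR 2 members were called higher than in Baseline (Sox1 and Sox21), where 44.2% of all genes were, and 4 lower (Sox2, Sox4, Sox8 and Sox9), where 32.8% were. Because NR is given as sorted for GFP, the call of Sox1 checks the label and is not an independent finding. Sox1 was at 4.62, 20.0 and 19.2 CPM, so the first library lay below all Baseline libraries and the others above them. The log2 fold change of Sox1 was 1.48 (standard error 0.40, edgeR adjusted p = 0.00434) and 1.84 without replicate 1. It was 0.66 and did not pass when libraries were thinned to equal depth (edgeR adjusted p = 0.333, the highest of 20 alternatives, whose lowest was 4.60e-15). Sox21 was at 63.7, 170 and 149 CPM (log2 0.93, standard error 0.25, edgeR adjusted p = 0.00412) and gave 1.22 without replicate 1. Sox9 was at 88.2, 222 and 114 CPM and overlapped with Baseline (log2 -0.73, standard error 0.27, edgeR adjusted p = 0.0237), and it was called at -0.51 without replicate 1. The Sox9 call was lost without NR replicate 3 (-0.61) and without Baseline replicate 3 (-0.64), while without NR replicate 2, the highest of the 3, the value was -1.20.

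The libraries labelled NR lay below those labelled NSC for 8 members, all tested ones but Sox9, where 25.8% of all genes were called lower. None was called higher, against 29.5% of all genes. For each of these 8 all 3 NR values lay below all 3 NSC values. The share of all genes separated in this way was not counted for NR and NSC, so this number has no background. The log2 fold changes ran from -1.89 for Sox1 (standard error 0.34, edgeR adjusted p = 5.37e-04) to -0.39 for Sox12. Sox21 (-1.74), Sox8 (-1.57), Sox3 (-1.43) and Sox11 (-1.17) lay between. Without NR replicate 1 the number was 7, with Sox12 lost (-0.25). Sox1 was then at -1.50, Sox21 at -1.43, Sox8 at -1.42, Sox3 at -1.13 and Sox11 at -0.90. Sox9 passed without NR replicate 2 (-0.72). The pluripotency and fibroblast markers named above were higher in NR than in NSC, and their part in these falls was not tested.

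Measured against NSC, 7 members were called lower in Sox1posGP (all tested ones but Sox4 and Sox8), where 39.9% of all genes were, and 2 higher, where 30% were. Sox4 was higher by a log2 fold change of 0.34 (standard error 0.16, edgeR adjusted p = 0.0699), which was lost in 10 of 20 alternatives. Among them were 7 that each left out 1 library, namely Baseline replicates 2 or 3, any Sox1posGP replicate, or NSC replicates 2 or 3, with values of 0.30 to 0.37. Sox12 was lower by -0.39 and was lost without Sox1posGP replicate 1, NSC replicate 2 or NSC replicate 3 (-0.30 to -0.37).

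Measured against NR, 4 members were called lower in Sox1posGP (Sox2, Sox3, Sox21 and Sox9), where 42.9% of all genes were, and 2 higher (Sox4 and Sox8), where 30.8% were. Sox21 was 3.73-fold lower (log2 -1.90, standard error 0.27, edgeR adjusted p = 2.74e-05), Sox4 2.29-fold higher (log2 1.20) and Sox8 26.5-fold higher (log2 4.73). Without NR replicate 1 these were -2.20, 1.01 and 4.59. Sox1 was above NR in all 3 libraries but did not pass (log2 0.50, standard error 0.37, edgeR adjusted p = 0.238). Without NR replicate 1 it was 0.12 (edgeR adjusted p = 0.480), and it ran from 0.12 to 0.77 without 1 library. It passed without the filter on low counts (0.47, edgeR adjusted p = 0.0159). Sox3 and Sox9 overlapped between the groups, and the calls were fragile. The call of Sox9 was lost in 10 of 20 alternatives, among them the fits without any Baseline or Sox1posGP replicate, without NSC replicate 1 or 3 and without NR replicate 2 (-0.12 to -0.62). That of Sox3 was lost in 5, among them the fits without Sox1posGP replicate 2 or 3 or NR replicate 2 or 3 (-0.65 to -0.83). Without NR replicate 2 Sox9 was at -0.12 and Sox3 at -0.72, and neither passed. Sox11 passed without NR replicate 1 (log2 -0.68, edgeR adjusted p = 3.65e-05, against -0.42 and 0.0865 with it).

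The genes around each member were read from the same fit. Within 5 Mb of Sox1, 33 expressed genes had a median log2 fold change of 0.07 in Sox1posGP against Baseline, and 32 of them lay at or below Sox1. None of 34 neighbours of Sox2 and none of 9 of Sox3 fell as much as the member, with medians of -0.19 and -0.02. The same held for all but 1 of 18 neighbours of Sox21, 3 of 128 of Sox8 and 1 of 65 of Sox9. Sox11 differed from these. The 24 genes within 5 Mb of it had a median of -0.49, of which 8 fell as much as Sox11, and chromosome 12 as a whole had a median of -0.29 against -0.06 over 9655 expressed genes. The part of this shift in the fall of Sox11 was not tested. Around Sox4, which was not called, 16 genes had a median of 0.39, and 2 of them lay at or below Sox4. Around Sox12, also not called, 85 genes had a median of -0.04, with 33 at or below Sox12.

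Sox1ot, a noncoding gene that spans Sox1 on the same strand and shares no exonic base with it, had 0.776, 0.837 and 0 CPM in Baseline and 1.16, 1.099 and 1.17 in Sox1posGP. It did not pass (log2 0.83, standard error 0.67, edgeR adjusted p = 0.367), and it was at 13.5, 10.1 and 11.7 CPM in NSC. Sox2ot, which spans Sox2 in the same way, went with Sox2, from 6.92, 10.3 and 10.2 CPM to 2.32, 2.83 and 1.83 (log2 -1.94, standard error 0.35, edgeR adjusted p = 5.76e-04). Gm25239, a miRNA gene inside the Sox1 exon, and Gm26735, opposite Sox4, had 0 CPM throughout.

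Genes used together with Sox factors were read as lists, beside a median of all genes of 0.00 in Sox1posGP against Baseline. Of 12 POU and other partner factors of SoxB1, 2 were called higher and 3 lower, against 21.6% and 22.7% of all genes, with a median log2 fold change of -0.34. Pou3f1 (Oct6) rose from 23.8 to 45.6 CPM (log2 0.94, standard error 0.13, edgeR adjusted p = 5.10e-05), and Pou3f3 (Brn1), Pax6 and Pou3f2 (Brn2) fell (-1.29, -0.78 and -0.75). Pou3f factors act with SoxB1 on neural enhancers, and Pax6 patterns the neural tube and eye. In NSC, Pax6 and Pou3f2 were called on the other side of Baseline (0.97 and 0.94), while Pou3f1 rose there too (0.96). The chromatin remodellers Chd7 and Smarca4, the most abundant of the list, had -0.11 and 0.17 and did not pass.

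Of 12 neuroepithelial genes 4 were called higher in Sox1posGP and 2 lower (21.6% and 22.7% of all genes), with a median of 0.49. Nes, the intermediate filament of neural stem cells, rose from 90.2 to 227 CPM (log2 1.34, standard error 0.29, edgeR adjusted p = 0.00246). Cdh2, the N-cadherin of neuroepithelium, rose from 68.2 to 148 CPM (1.11), and Six3 rose from 0.484 to 1.91 CPM (1.62). The Baseline level of Six3 lay near the counting floor of 0.408 CPM. Fabp7, a lipid-binding protein of radial glia, fell from 743 to 346 CPM (-1.103). Vim, the most abundant, had 0.24 and did not pass. Gbx2 (0.76) and Notch1 (-0.78), also called, were named after their values were seen. For Gbx2 the groups overlapped, at means of 1.57 CPM in Baseline and 2.39 in Sox1posGP, and the call was marginal (edgeR adjusted p = 0.09996). In NSC the list had 9 genes called higher and 2 lower, where 42.7% and 32.5% of all genes were (median 2.51, against 0.20 over all genes).

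Of 12 neuronal genes 3 were called higher and 1 lower, shares near or below the 21.6% and 22.7% of all genes, with a median of 0.28. Dcx, a microtubule protein of young neurons, rose from 0.713 to 4.57 CPM (log2 2.78, standard error 0.63, edgeR adjusted p = 0.00311). Stmn1 rose from 299 to 413 CPM (0.46) and Neurod1 from 14.5 to 22.0 (0.59). Map2 had -0.21 and did not pass. In NSC 7 were called higher and 2 lower (42.7% and 32.5% of all genes), with a median of 2.20.

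Of 12 astroglial genes used with Sox9, 4 were called higher and 1 lower, where 21.6% and 22.7% of all genes were, with a median of 0.17 (-0.02 with Aqp4 set to its bound). Slc1a3, a glutamate transporter, fell from 2605 to 1182 CPM (log2 -1.14, standard error 0.09, edgeR adjusted p = 3.70e-07). Sparcl1 rose from 364 to 623 CPM (0.77) and Aldh1l1 from 0.660 to 1.96 (1.59). Aqp4 was called as well, but its means of 0.0199 CPM in Baseline and 0.321 in Sox1posGP lay under the floors of 0.408 and 0.613 and the groups overlapped, so a rise is not shown. Nfia, named after its value was seen, rose (0.60). In NSC 9 of the 12 were called lower and 2 higher, against 32.5% and 42.7% of all genes (median -3.26).

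The oligodendroglial list held 12 genes used with Sox8 and Sox10, of which 10 were tested. Called lower were 4 and called higher none, where 22.7% and 21.6% of all genes were, with a median of -0.63 (-0.27 with the 2 genes at the counting floor in 1 group, Nkx2-2 and Mbp, set to their bound and the 2 at the floor in both left out). Cnp, an enzyme of myelin-forming cells, fell from 71.2 to 42.6 CPM (log2 -0.74, standard error 0.09, edgeR adjusted p = 2.00e-05). Olig2 and Olig1, factors of the oligodendrocyte lineage, fell from 684 to 331 CPM (-1.05) and from 1757 to 1373 CPM (-0.36). Mbp, a myelin protein, was called lower at 0.394 and 0.0965 CPM, but both means lay under the counting floors and the groups overlapped, so a fall is not shown. Olig1 and Olig2 were at 4.94 and 28.3 CPM in NSC, and both were above that level in Sox1posGP, as Sox8 was. The list as a whole did not follow them in NSC. There 6 of the 10 were called higher than Baseline and 3 lower, where 42.7% and 32.5% of all genes were. The NSC median was 2.03, or 1.08 with Cspg4 and Gpr17, at the floor in Baseline, set to their bound.

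**Figure D4:**
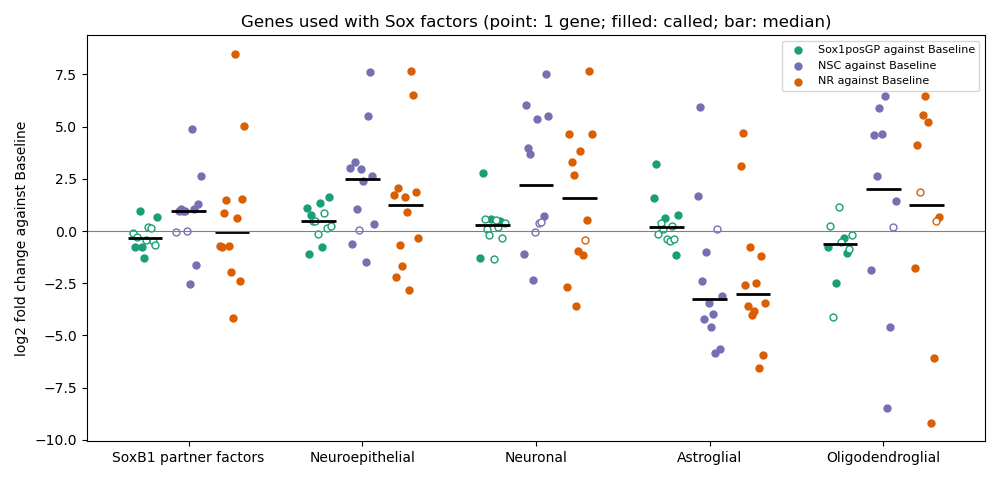
Log2 fold change against Baseline of each tested gene in 5 lists of genes used with Sox factors, in Sox1posGP, NSC and NR, filled where called, with the median of the list as a bar. The Sox1posGP medians lie between -0.63 and 0.49, while the NSC medians reach 2.51 for neuroepithelial and -3.26 for astroglial genes.

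The genes whose log2 CPM was most like a member's over the 12 libraries, which are 4 groups of 3, are given by Pearson's r among 9654 expressed genes. For Sox1 they were Peg12 (0.983), Nes (0.983) and Abhd8 (0.977). For Sox2 they were Sel1l (0.991), Slc9a8 (0.977) and Mipol1 (0.975), and for Sox11 Nr2f1 (0.984), Zfp334 (0.974) and Dcp1b (0.974). Sox9 had lower values, with Gsk3b (0.892), Mlycd (0.879) and Sox2 (0.876). Among the members, the r of Sox3 with Sox11 was 0.918, that of Sox21 with Sox11 0.894 and that of Sox4 with Sox8 0.893, whereas that of Sox1 with Sox2 was -0.35.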

How the data were processed

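RNA from the PicoPure kit had been amplified by SMART-Seq v4, and the authors deposited raw read counts per Ensembl gene. The submitters' processing notes name STAR 2.6, RSEM 1.1.14 and mm10 without their roles, and the strand setting is not given in the sources used here. Symbols and coordinates came from GENCODE for GRCm38 (45143 of 45706 identifiers), and the 563 others held 0.124% of counts. Counts were scaled by TMM, filtered by filterByExpr and tested with glmQLFTest in edgeR 4.0.16 (limma 3.58.1, R 4.3.3) over all 12 libraries without a block, with Benjamini-Hochberg adjustment over 17003 genes. CPM used TMM-scaled totals, and CPM per kb the union of exons. Neighbours and like genes had a mean log2 CPM above 3. Calls were tested on simulated data. DESeq2 1.42.0, other scalings, filters, thinning, a replicate block and the omission of each library were alternatives. Python 3.11.15, pandas 2.3.3 and matplotlib 3.10.9 were used. All members are named, and of each list the 4 genes of smallest adjusted p in Sox1posGP plus up to 2 of the highest level. Of the genes in the lists, 2 are counted but not reported here by name. Members and lists were chosen with earlier results of these data known. Replicates were made on different days in different clonal lines, by the study's reporting summary.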

Additional observations from a re-analysis of the deposited data

How the results depend on the processing

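For the 6 comparisons the number of members called was 7, 7, 6, 8, 9 and 6 (Sox1posGP, NSC and NR against Baseline, NR against NSC, Sox1posGP against NSC and against NR). With a fold change over 4 asked as well, it was 0, 3, 1, 0, 3 and 1. Of all 17003 genes, 658, 3252, 3740, 1248, 989 and 1029 were then called higher. Called lower were 327, 1002, 1023, 20, 2786 and 3408. Without 1 library the members called ran from 7 to 8, 7 to 8 and 5 to 7 against Baseline. For the other 3 comparisons they ran from 7 to 9, 7 to 9 and 4 to 7. Under every other alternative the number of members called stayed within 1.5 times. With the replicate block it was 7, 8, 6, 8, 9 and 6, and same-numbered libraries did not deviate together throughout (correlations of 0.0628 to 0.0949 for Sox1posGP and Baseline, of -0.22 to -0.0071 for NSC and Baseline, and of 0.0446, 0.359 and 0.375 for NR and NSC). The block added Sox12 in NSC against Baseline (log2 0.22) and changed no other call. Of the values under settings other than leaving out a library, 403 kept direction and call, 10 lost it, 12 gained it and 7 turned. Turned values were all of Sox12 and Sox9 near 0 and had no call. Sox12 in NR against Baseline was 0.026 when thinned. Sox12 in Sox1posGP against NR was -0.030 in DESeq2, -0.023 with its size factors, -0.022 with upper-quartile scaling, -0.013 without a filter, -0.068 with at least 10 counts in every library, -0.088 when thinned, and -0.12 to 0.12 without 1 library. Sox9 in NR against NSC ran from -0.72 to 0.0054 without 1 library. Sox9 in NR against Baseline lost its call with at least 10 counts in every library (-0.59) and when thinned (-0.52). Thinning to 3407066 counts lowered the genes called in Sox1posGP against Baseline from 3676 higher and 3856 lower to 1610 and 1487. It also left 13433 genes tested, against 17003. Sox10, which the filter on low counts left out, was called in NSC and in NR against Baseline and in Sox1posGP against both with DESeq2 and without the filter. The low depth of Sox1posGP limits the rarest genes of the lists. The cause of the changes between settings was not tested.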

Other observations

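The other Sox genes showed where the rest of the family stood, and 7 of the 9 listed were tested. In Sox1posGP against Baseline 1 of the 7 was called lower and none higher, where 22.7% and 21.6% of all genes were (median log2 fold change -0.44, or -0.16 with Sox18 set to its bound and the 3 genes at the floor in both groups left out). The SoxD genes Sox5 and Sox6, which act in glial and neuronal progenitors, were at 79.2 to 87.1 and 88.0 to 93.6 CPM in Baseline and at 58.8 to 63.0 and 91.9 to 106 in Sox1posGP. Neither passed there (log2 -0.44 and 0.12, edgeR adjusted p = 0.199 and 0.783, from its quasi-likelihood test with the Benjamini-Hochberg correction). In the libraries labelled NSC both were lower than in Baseline (log2 -2.21 and -2.86), as in NR (-3.09 and -3.30). Sox13, the third SoxD gene, went the other way, from 2.37 to 4.17 CPM in Baseline to 328 to 362 in NSC (log2 6.74, standard error 0.25, edgeR adjusted p = 4.61e-11). It was at 3.67 to 6.95 CPM in Sox1posGP and did not pass (log2 0.55, edgeR adjusted p = 0.237).

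Sox17, a factor of endoderm and vessels, and Sox15, a factor of pluripotent cells and muscle, were highest in the libraries labelled NR. Sox17 was at 17.4, 9.07 and 12.5 CPM there, against 1.62 to 2.35 in NSC, and Sox15 at 19.2, 11.1 and 14.1 CPM against 0.276 to 0.671. NR replicate 1 had the highest level of both and the lowest of Sox1. Sox18, a vessel factor, was called lower in Sox1posGP (0, 0.157 and 0.500 CPM against 0.835 to 1.40 in Baseline, edgeR adjusted p = 0.0227), where it was at the counting floor.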
